A study of Mus musculus with 12 samples.

Results

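The chemokines and the genes of intraepithelial lymphocytes were examined in colonocytes, which form the absorptive lining of the large bowel. The members were the rows of the array table whose symbol spells a chemokine or chemokine receptor, a part of the T cell receptor complex or its coreceptors and kinases, a granzyme or perforin, or a killer lectin-like receptor. They were chosen by spelling and not by their values, and they made up 75 of 15154 rows, or 74 genes, since the rows named Klra33 and Klra4 belong to 1 gene. RNA had been measured on Illumina bead arrays in colonocytes of C57BL/6 mice that were germfree (GF, kept in isolators without microbes) or conventionally raised (CONV). There were 6 samples of each group, which the labels call biological replicates, and p-values here measure the spread between these samples. Each group was split evenly over 2 labelled batches: replicates 1 to 3 of both groups formed batch 1, and batch 2 held replicates 4 to 6. The labels name no age, altered allele or further treatment for either group.

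Chemokines are small secreted proteins that draw leukocytes along a gradient by way of G protein-coupled receptors on the leukocyte surface. Intraepithelial lymphocytes are T cells that sit between the epithelial cells of the gut, many of which carry CD8 as their coreceptor and store granzymes and perforin for killing infected cells. They can come off with the epithelium when colonocytes are isolated, so RNA of isolated colonocytes can hold transcripts of both. In such bulk RNA, fewer cells of a type and less RNA per cell cannot be told apart.

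Values below are log2 signals after background correction and quantile normalisation over the 12 arrays. A row counted as detected on an array where its deposited detection p was below 0.05, and rows detected on at least 3 arrays were tested, 8107 genes in all. Each array had 7090 to 7402 detected rows in batch 1 and 6089 to 6470 in batch 2. Colonocyte markers were present, with 8 of the 8 listed genes on the table detected on at least 6 arrays, among them the villin gene Vil1 and the keratin genes Krt8 and Krt19. Of these 8, Krt18 (-0.78, adjusted p = 0.000112) and Aqp8 (-0.83, adjusted p = 0.0400, limma) were lower in GF samples. Epcam and Krt20 were detected in 1 batch only. The Krt20 row read 4.71 to 4.90 in batch 1 and 12.26 to 13.26 in batch 2. Whether a row reads the same transcripts in both batches is thus not known. GF replicate 5 stood apart from the other arrays of batch 2, with a mean correlation of 0.980 against 0.984 to 0.989 for the others. The counts below are therefore also given without it. In batch 1 the mean correlations were higher, at 0.994 to 0.998, so p-values within batch 1 rest on a smaller spread between samples. The fits over 12 arrays take 1 spread for both batches. Signals served to choose which genes to name, and no gene is called more abundant than another. The detection p-values rest on different numbers of negative controls in the 2 batches (1603 and 936), and no source used here says whether both batches used 1 array design.

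Most members were not seen in these cells. Of the 75 rows, 45 were detected on no array, 10 on 1 or 2 arrays and 20 on 3 or more, of which 8 were detected on all 12. The receptors stood at the low end: 11 of 12 chemokine receptor rows were never detected, including Cxcr3 (the receptor of Cxcl9) and Cxcr6 (the receptor of Cxcl16), and Ccr10 was detected on 1 array. Of the 19 rows of killer lectin-like receptors, which regulate natural killer and cytotoxic T cells, 16 were never detected and only Klrg2 reached 3 arrays. The granzyme gene Gzmb and the pan-leukocyte phosphatase gene Ptprc (CD45) were also never detected. An undetected row was not above the array's background by its detection p, which does not show that the gene was silent. In addition, 29 of the 75 rows had detection p-values that are not single steps of the negative controls in at least 1 batch, and such combined rows can be bright and still count as undetected.

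**Figure D1:**
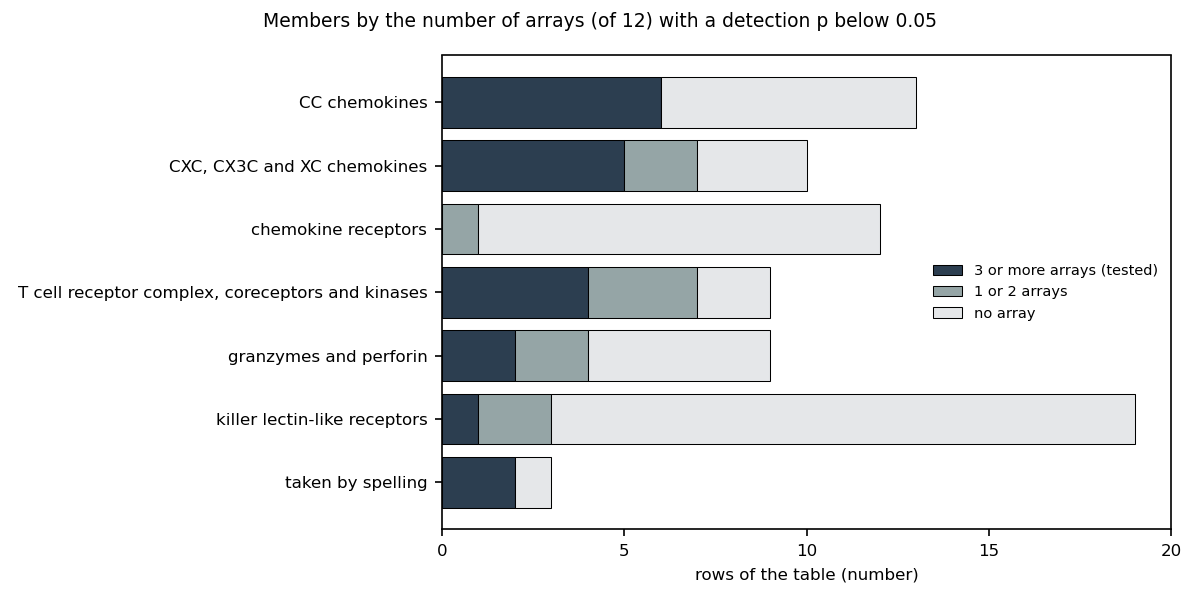
Number of table rows of each role group (horizontal axis) by the number of the 12 arrays on which they were detected; dark bars are the rows that were tested. The CC chemokines (6 of 13) and the CXC, CX3C and XC chemokines (5 of 10) hold most tested rows, while 0 of 12 chemokine receptor rows could be tested.

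Among the 20 tested members, 2 were higher and 5 lower in GF than in CONV colonocytes (limma, two-sided, batch as a term, Benjamini-Hochberg adjusted p below 0.05 over all genes). Ccl25 and Cxcl12 rose, whereas Ccl5, Ccl4, Cxcl9, Cd8b1 and Cd81 fell. Of these 7, Cxcl12, Ccl4, Cxcl9 and Cd8b1 were undetected on several arrays. The rows of Cxcl12, Ccl4 and Cd8b1 are combined rows in both batches, and that of Cxcl9 is combined in batch 1. Over all genes tested 11.3% were higher, 12% lower and 23.3% either by the same rule. The 2 rises among 20 are thus close to the background share and the 5 falls are more than it. Of these falls, that of Cd81 belongs to a gene taken by spelling only, which is no gene of the CD8 coreceptor. Cxcl12 passed the detection filter through 3 GF and 0 CONV arrays, and Ccl4 through 4 CONV and 0 GF arrays. Both were thus tested only through the group where they were higher, which limits their weight in these counts. Without a detection filter both kept their call (adjusted p = 0.00211 and 0.0188), while Cxcl9 lost it (0.0593, limma). The median difference was -0.07 over the tested members and 0.01 over all genes tested, and the median size of the difference was 0.30 and 0.16. Without GF replicate 5 there were 3 higher members, with Xcl1 added, and 4 lower ones, with Cxcl9 lost. In that fit 1063 of all 8107 genes were higher and 1082 lower, against 914 and 975 with it.

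**Figure D2:**
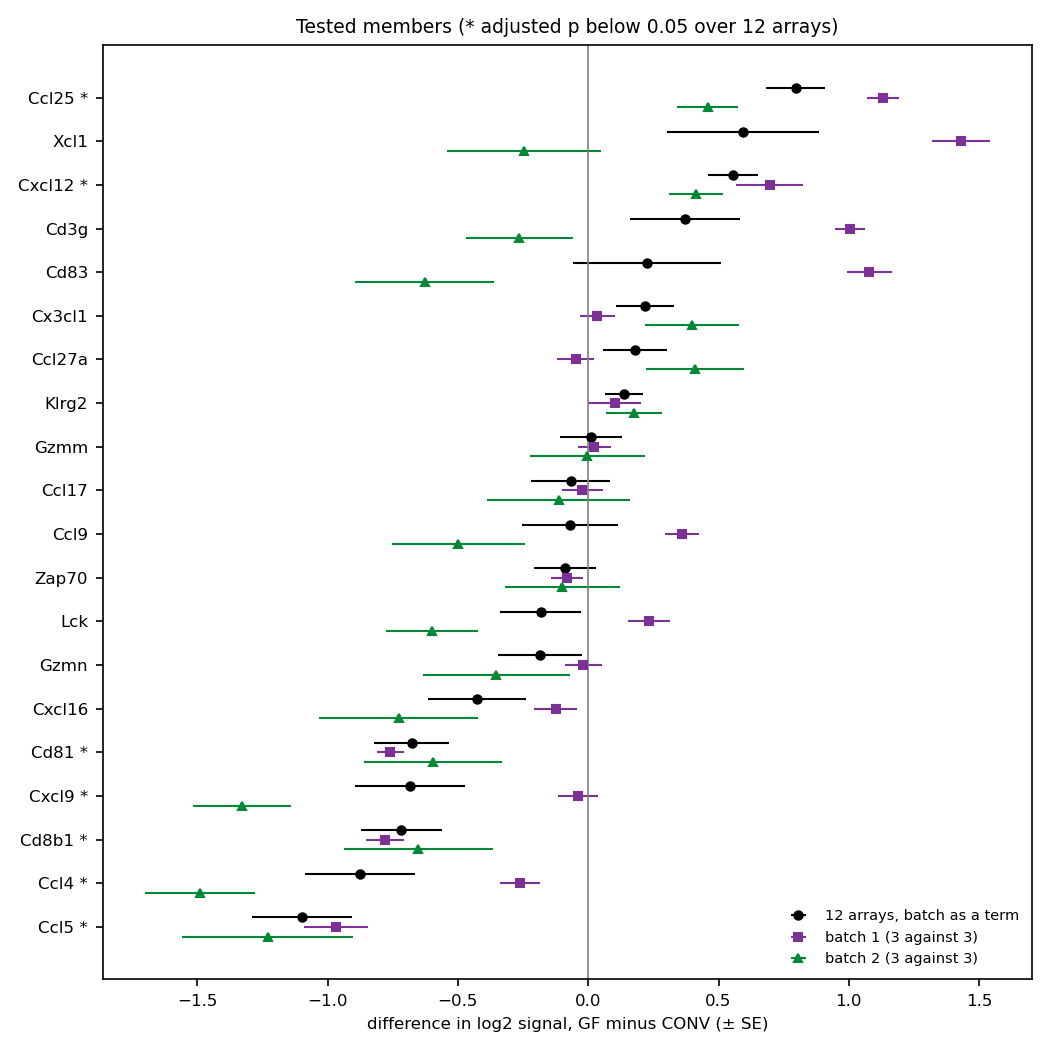
Difference in log2 signal, GF minus CONV, with its standard error for the 20 tested members, over 12 arrays (black circles), in batch 1 (purple squares) and in batch 2 (green triangles); asterisks mark an adjusted p below 0.05 over 12 arrays. Ccl25 and Cxcl12 lie right of 0 and Ccl5, Cd81 and Cd8b1 left of 0 in both batches, while Xcl1, Cd3g and Cd83 lie on opposite sides in the 2 batches.

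To show the start regions of called chemokines beside their values, the 250 bases before an annotated start were taken from RefSeq promoter windows of GRCm38.p6, in which 55 of the 74 member genes have an entry, Ccl4 and Ccl5 not among them. Written 5′ to 3′ in the direction of the gene, they read as follows, with motif matches in capitals. The windows are chr8:4349338-4349587 (plus strand) for the second of the 2 annotated starts of Ccl25, chr6:117168285-117168534 (plus strand) for Cxcl12 and chr5:92328080-92328329 (minus strand) for Cxcl9.
Ccl25: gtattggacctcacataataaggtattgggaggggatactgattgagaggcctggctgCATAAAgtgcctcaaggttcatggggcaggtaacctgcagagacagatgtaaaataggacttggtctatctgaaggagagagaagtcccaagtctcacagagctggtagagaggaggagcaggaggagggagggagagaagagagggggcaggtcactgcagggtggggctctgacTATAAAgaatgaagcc
Cxcl12: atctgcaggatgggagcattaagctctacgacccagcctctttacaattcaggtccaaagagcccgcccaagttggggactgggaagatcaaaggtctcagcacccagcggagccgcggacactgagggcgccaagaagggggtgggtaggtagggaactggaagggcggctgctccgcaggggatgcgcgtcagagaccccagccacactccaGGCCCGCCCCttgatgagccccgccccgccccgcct
Cxcl9: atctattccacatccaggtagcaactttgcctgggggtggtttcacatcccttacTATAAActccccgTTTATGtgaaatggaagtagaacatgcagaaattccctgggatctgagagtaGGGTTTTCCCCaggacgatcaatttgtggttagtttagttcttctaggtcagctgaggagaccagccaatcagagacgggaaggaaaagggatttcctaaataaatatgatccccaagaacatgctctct

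The motifs searched on both strands were TATAAA (the TATA box), TTTATG (bound by the intestinal CDX factors), GGG and CC with any 5 letters between them (a loose kappa B site) and GAAA with any 2 letters before a second GAAA (the interferon-stimulated response element). Positions are those of a match's first base as written, with -1 for the base before the start. The window of Ccl25 held the TATA box at -16 and the CDX letters on the minus strand at -192, and the window of its other start, with a GC content of 74.8% against 51.6% here, held none of the 4 motifs. Cxcl12 held 1 kappa B match on the minus strand, at -36. Cxcl9 held 3 overlapping kappa B matches in 1 run of letters beginning at -130, a TATA box at -195 and the CDX letters at -182, and none of the 3 windows printed held the interferon-stimulated response element. Among all 32851 windows of this length 45.8% held the kappa B letters, 12.4% TATAAA, 10.8% TTTATG and 2.98% the interferon-stimulated response element. A match is a description of the letters and not a binding site.

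The CC chemokines moved in both directions. Ccl25, the epithelial ligand of Ccr9 that guides lymphocytes to the gut, was detected on all 12 arrays. Its log2 signal in batch 1 was 7.75, 7.65 and 7.70 in GF samples, against 6.50, 6.64 and 6.56 in CONV samples. In batch 2 it was 7.46, 7.70 and 7.69 in GF samples, against 7.13, 7.14 and 7.20 in CONV samples. Every GF sample lay above every CONV sample in each batch, and the difference over both batches was 0.80 ± 0.11 (SE, n = 6 each), or 1.74-fold, with an adjusted p of 0.000472 (limma). The rise was larger in batch 1 (1.13) than in batch 2 (0.46, adjusted p = 0.0999 within that batch), and the interaction of batch and group was called (batch 2 minus batch 1 -0.67, adjusted p = 0.00661, limma). The interaction was called in 8.84% of all genes tested. The Ccl25 row is a combined row in batch 1 and not in batch 2. A change of the row and a change of the GF difference cannot be told apart.

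Ccl5 (RANTES), a chemokine made by activated cytotoxic T cells as well as other cells, fell in GF samples and was detected on all 12 arrays. In batch 1 its log2 signal was 7.27, 7.40 and 7.47 in GF samples, against 8.05, 8.44 and 8.56 in CONV samples, and in batch 2 it was 8.44, 7.68 and 7.48 in GF samples, against 9.52, 9.26 and 8.51 in CONV samples. All GF samples were below all CONV samples of their batch, though in batch 2 the highest GF sample (8.44) nearly reached the lowest CONV sample (8.51). The difference was -1.10 ± 0.19 (SE, n = 6 each; adjusted p = 0.00168, limma), with -0.97 in batch 1 and -1.23 in batch 2, and the batches did not differ beyond their spread (batch 2 minus batch 1 -0.26 ± 0.39, adjusted p = 0.735, limma).

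Ccl4 (MIP-1 beta), another chemokine of activated lymphocytes and macrophages, was detected on 4 CONV arrays and on 0 of 6 GF arrays, so its GF level is only a bound. Its measured log2 signal in batch 2 was 5.47, 5.16 and 4.88 in GF samples, against 6.76, 6.91 and 6.30 in CONV samples. In batch 1 it was 4.83, 4.88 and 4.90 in GF samples, against 5.01, 5.09 and 5.29 in CONV samples, of which 1 was detected. The measured values of the groups did not overlap in either batch (means 5.02 in GF and 5.89 in CONV over both; adjusted p = 0.0107, limma). Ccl4 entered this test through its CONV arrays alone. Against the lowest detected signal of rows that are not combined, the fall in GF was at least 2.11-fold in batch 2 and 1.41-fold over both batches. In batch 1 the mean CONV signal was itself below that limit of the GF arrays, so no fold is given there. The Ccl4 row is combined in both batches, so this limit need not hold for it. The interaction of the measured values was called (-1.23, adjusted p = 0.00966, limma), although with undetected samples in both batches the true sizes cannot be ranked.

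Ccl9, a chemokine of the mouse that attracts dendritic cells, was bright on all arrays and not called (-0.07 ± 0.18, adjusted p = 0.824, limma). In batch 1 its log2 signal was 9.12, 9.07 and 9.18 in GF samples, against 8.74, 8.86 and 8.69 in CONV samples, and in batch 2 it was 10.47, 9.51 and 10.42 in GF samples, against 10.57, 10.71 and 10.62 in CONV samples. The GF samples were thus above the CONV samples in batch 1 and below them in batch 2, and the interaction missed the threshold (adjusted p = 0.0839, limma). It passed without GF replicate 5, without GF replicate 4 and with array weights. Of the other 2 tested CC chemokines, Ccl27a, a skin and mucosal chemokine with near-identical copies in the mouse genome, differed by 0.18 (adjusted p = 0.318) and Ccl17, a ligand of Ccr4, by -0.07 (adjusted p = 0.789), both without a call in limma's fit.

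The remaining chemokine families also held 1 call in each direction among 5 tested genes. Cxcl12, a chemokine made mainly by stromal cells that retains leukocytes in tissues, was detected on 3 GF arrays (1 in batch 1, 2 in batch 2) and on 0 of 6 CONV arrays. Its measured log2 signal in batch 1 was 5.61, 5.53 and 5.74 in GF samples, against 5.25, 4.75 and 4.79 in CONV samples, and in batch 2 it was 5.22, 5.17 and 5.20 in GF samples, against 4.73, 4.86 and 4.76 in CONV samples. No GF sample overlapped with a CONV sample of its batch. The measured means were 5.41 in GF and 4.85 in CONV (adjusted p = 0.00148, limma), in a test that Cxcl12 entered through its GF arrays alone. The CONV level is only a bound, with its limit set by the lowest detected signal of rows that are not combined. Against this limit the signal was at least 1.36-fold higher in GF in batch 1, where 1 of 3 GF arrays was detected. Over both batches it was at least 1.05-fold higher. In batch 2 the GF mean was below that limit of the CONV arrays and no fold is given. The Cxcl12 row is combined in both batches, so this limit need not hold for it. The 5 fibroblast markers on the table, of which 2 were never detected and 0 of 2 tested were called, summed to 237 to 253 linear signal units in GF samples and 196 to 203 in CONV samples of batch 1, and to 150 to 180 in GF samples and 149 to 183 in CONV samples of batch 2. In batch 1 this sum differed mainly through Vim, which read 7.09, 7.05 and 6.97 in GF samples, against 6.39, 6.48 and 6.43 in CONV samples. Vim was detected on 0 GF arrays and 1 CONV array. The other fibroblast markers read at most 5.21 in batch 1 (Pdgfra in GF replicate 2). The part of the fibroblast markers in the result was not tested.

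Cxcl9 is an interferon gamma-induced chemokine that attracts T cells through Cxcr3, and its window held the kappa B letters in 1 run. It was detected on 3 GF and 6 CONV arrays. Its log2 signal in batch 2 was 4.70, 4.88 and 4.76 in GF samples, none of them detected, against 6.52, 5.94 and 5.87 in CONV samples. In batch 1 it was 5.13, 5.07 and 5.33 in GF samples, against 5.26, 5.19 and 5.19 in CONV samples. The groups were apart in batch 2 (measured -1.33, at least 1.44-fold lower in GF) and overlapped in batch 1 (-0.04), and this interaction was called (batch 2 minus batch 1 -1.29, adjusted p = 0.00452, limma). As for Ccl25, the Cxcl9 row is combined in batch 1 and not in batch 2, so a change of the row cannot be told apart from it. Over 12 arrays the difference was -0.68 ± 0.21 (SE, n = 6 each; adjusted p = 0.0345, limma), and leaving out any 1 of the 6 samples of batch 2 ended the call (adjusted p between 0.0541 and 0.0720).

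The lymphocyte chemokine Xcl1 (lymphotactin), which cytotoxic T cells and natural killer cells secrete, differed between the batches. Its log2 signal in batch 1 was 7.80, 7.71 and 7.63 in GF samples, against 6.02, 6.43 and 6.40 in CONV samples, and in batch 2 it was 6.50, 5.27 and 6.15 in GF samples, against 6.34, 6.13 and 6.19 in CONV samples. The groups were apart in batch 1 (1.43 ± 0.11) and overlapped in batch 2 (-0.25 ± 0.30), with a called interaction (-1.68, adjusted p = 0.0127, limma). Over 12 arrays Xcl1 was not called (0.59, adjusted p = 0.169, limma), although it was without GF replicate 5 (0.84, adjusted p = 0.0139) and with array weights (1.21, adjusted p = 2.01e-05, limma).

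Cx3cl1 (fractalkine), the membrane-bound epithelial chemokine for Cx3cr1-bearing macrophages, was bright on all arrays and not called (0.22 ± 0.11, adjusted p = 0.185, limma). Its log2 signal in batch 1 was 10.10, 10.06 and 9.99 in GF samples, against 9.91, 10.06 and 10.07 in CONV samples, and in batch 2 it was 9.50, 9.87 and 9.27 in GF samples, against 9.33, 8.98 and 9.13 in CONV samples. The groups overlapped in both batches. Cxcl16, the ligand of Cxcr6, differed by -0.43 (adjusted p = 0.126, limma), and was called lower only when CONV replicate 4 was left out (-0.55, adjusted p = 0.0427, limma).

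**Figure D3:**
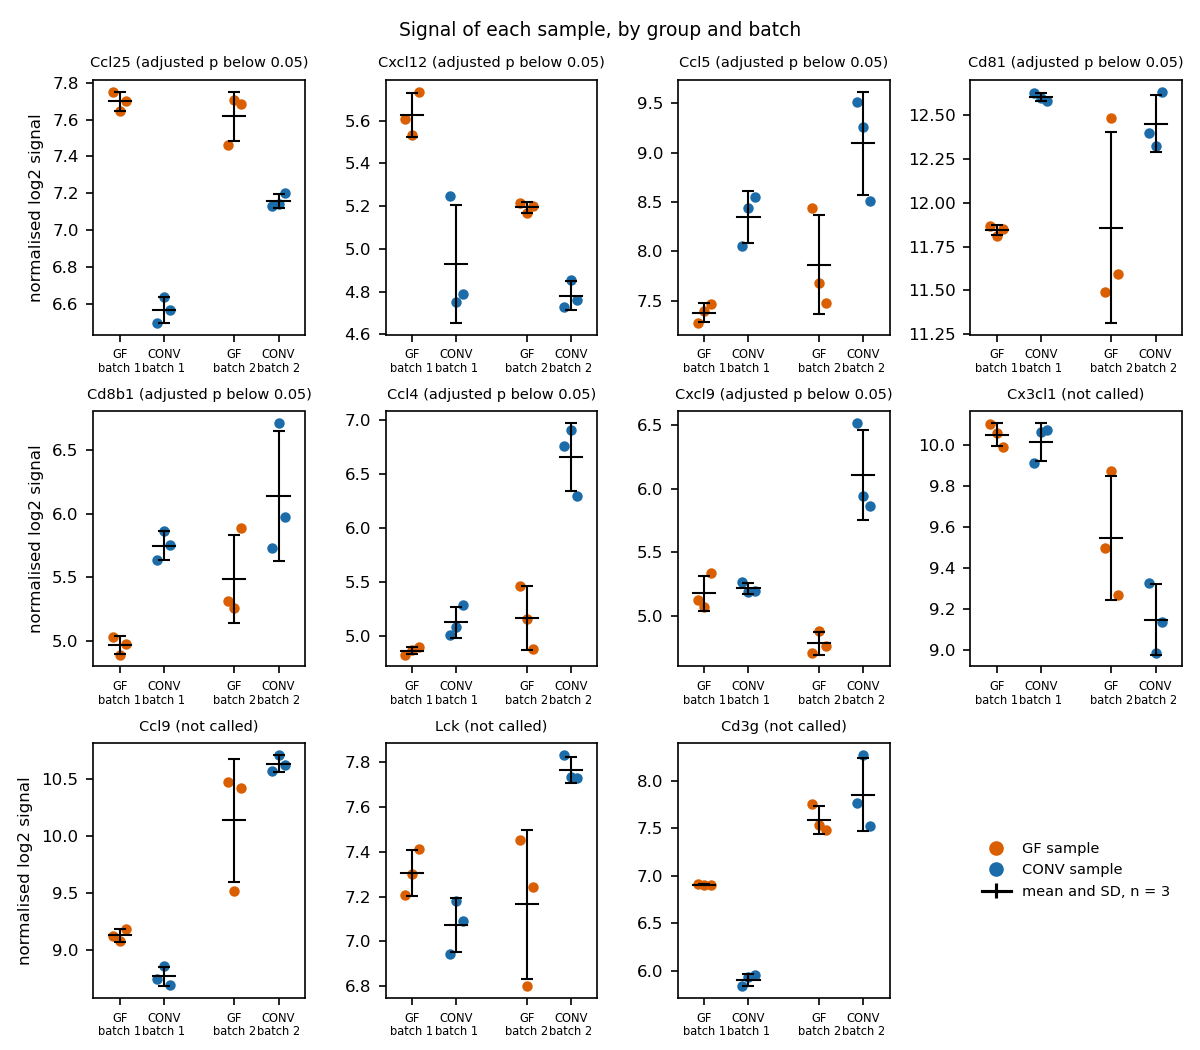
Normalised log2 signal of each sample (vertical axis, a separate scale for each gene) for the 7 called members and the 4 uncalled members with the highest mean signal, by group and batch; lines and bars are the mean and SD of 3 samples. GF samples of Ccl25 and Cxcl12 lie above, and those of Ccl5 and Ccl4 below, every CONV sample of the same batch, and GF replicate 5 is the high Cd81 value (12.48) and the low Ccl9 value (9.51).

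Of the 9 rows of the T cell receptor complex, its coreceptors and kinases, 4 were tested and 1 was called. Cd8b1, the beta chain of the CD8 coreceptor, had a lower measured signal in GF samples and was detected on 1 GF and 2 CONV arrays, all in batch 2. Its measured log2 signal in batch 1 was 5.03, 4.89 and 4.98 in GF samples, against 5.64, 5.86 and 5.75 in CONV samples, and in batch 2 it was 5.31, 5.26 and 5.89 in GF samples, against 5.73, 6.71 and 5.98 in CONV samples. The groups were apart in batch 1 and overlapped in batch 2 through GF replicate 6. The measured difference was -0.72 ± 0.16 (SE, n = 6 each; adjusted p = 0.00629, limma). No sample of either group was detected in batch 1, where the groups were apart. The Cd8b1 row is a combined row in both batches, so being undetected does not place it at background, and the size there is not known. Batch 2 alone gave no call (-0.65, adjusted p = 0.271, limma). Cd8a, the alpha chain, was detected on no array.

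Cd3g, the gamma chain of CD3, was detected on all 12 arrays and went the other way in batch 1. Its log2 signal there was 6.92, 6.90 and 6.90 in GF samples, against 5.83, 5.93 and 5.95 in CONV samples. In batch 2 it was 7.76, 7.53 and 7.48 in GF samples, against 7.77, 8.28 and 7.52 in CONV samples. Every GF sample was above every CONV sample in batch 1 (1.00 ± 0.06) and the groups overlapped in batch 2 (-0.26 ± 0.21), with a called interaction (-1.27, adjusted p = 0.00607, limma). The difference over 12 arrays was 0.37 and not called (adjusted p = 0.235, limma). It was called without CONV replicate 5 (0.53, adjusted p = 0.0471) and with array weights (0.85, adjusted p = 5.19e-05, limma), besides batch 1 alone.

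Lck, the kinase that starts signalling from the T cell receptor, was also detected on all 12 arrays. In batch 1 its log2 signal was 7.21, 7.30 and 7.41 in GF samples, against 6.95, 7.18 and 7.09 in CONV samples, and in batch 2 it was 7.45, 6.80 and 7.24 in GF samples, against 7.83, 7.73 and 7.73 in CONV samples. The groups did not overlap in either batch but stood in opposite order (0.23 in batch 1 and -0.60 in batch 2). The interaction was called (-0.83, adjusted p = 0.0269, limma), though not without GF replicate 2, GF replicate 3, CONV replicate 1 or CONV replicate 3, and the 12-array difference was -0.18 (adjusted p = 0.436). Zap70, the kinase recruited next, was detected on 5 arrays and differed by -0.09 (adjusted p = 0.632, limma).

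The 7 T lymphocyte markers on the table were summed, a sum carried mostly by Cd3g and Lck, the 2 detected on at least 6 arrays. Their summed linear signal was 409 to 434 in GF samples and 327 to 353 in CONV samples of batch 1, and 477 to 577 in GF samples and 607 to 723 in CONV samples of batch 2. None was undetected on every array, and 0 of 3 tested were called. Cd6, a T cell surface receptor detected on 0 GF and 2 CONV arrays, had lower measured signals in GF samples of both batches. The 3 markers of gamma delta or natural intraepithelial lymphocytes on the table (Cd160, Itgae and the undetected Gzmb) summed to 123 to 143 in GF samples and 102 to 116 in CONV samples of batch 1, and to 216 to 258 in GF samples and 201 to 233 in CONV samples of batch 2. Their groups overlapped in batch 2, and 0 of 2 tested were called. The part of lymphocyte number in the falls of Ccl5 and Cd8b1 was not tested.

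Of the granzyme and perforin rows 5 of 9 were never detected, and the 2 tested were not called: Gzmm differed by 0.01 (adjusted p = 0.964) and Gzmn by -0.19 (adjusted p = 0.446, limma). Both are granule serine proteases. Prf1, the pore-forming protein perforin, was detected on 1 array and not tested. Its row was at the array floor in batch 1 and read 10.69, 12.22 and 10.59 in GF samples, against 11.16, 11.38 and 11.44 in CONV samples, in batch 2, where the row combined probes in a way no source used here describes. These groups overlapped. Klrg2, the 1 killer lectin-like receptor row tested, differed by 0.14 (adjusted p = 0.208, limma).

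The spelling of the pattern also took in Cd81, Cd83 and Cd86, which are no genes of the CD8 coreceptor. Cd81, a widely expressed tetraspanin of the cell membrane, was bright on all 12 arrays and fell in GF. Its log2 signal in batch 1 was 11.87, 11.81 and 11.85 in GF samples, against 12.63, 12.60 and 12.58 in CONV samples, and in batch 2 it was 11.49, 12.48 and 11.60 in GF samples, against 12.40, 12.32 and 12.63 in CONV samples. Only GF replicate 5 lay within the CONV range of its batch. The difference was -0.68 ± 0.14 (SE, n = 6 each; adjusted p = 0.00543, limma), and -0.83 without that sample (adjusted p = 1.33e-05).

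Cd83, a marker of mature dendritic cells and activated lymphocytes, had a log2 signal in batch 1 of 6.37, 6.27 and 6.60 in GF samples, against 5.38, 5.29 and 5.34 in CONV samples. In batch 2 it was 6.49, 5.79 and 6.44 in GF samples, against 7.03, 7.18 and 6.40 in CONV samples. The groups were apart in batch 1 (1.08) and overlapped in batch 2 (-0.63), and the interaction was called (-1.71, adjusted p = 0.00642, limma). Over 12 arrays Cd83 was not called (0.22, adjusted p = 0.616), though it was with array weights (0.90, adjusted p = 0.000374, limma). Cd86, a costimulatory ligand of antigen-presenting cells, was never detected.

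Taken within a batch, the members split unevenly. In batch 1, where 23.4% of all genes were higher and 23.5% lower in GF, 7 members were higher (Ccl25, Ccl9, Cd3g, Cd83, Cxcl12, Lck and Xcl1) and 4 lower (Ccl4, Ccl5, Cd81 and Cd8b1). In batch 2, where 1.1% were higher and 1.6% lower, 0 were higher and 2 lower (Ccl4 and Cxcl9). The median difference of the 20 members was 0.00 in batch 1 and -0.31 in batch 2, against 0.01 in each batch over all genes tested. The interaction was called in 7 of 20 members against 8.84% of all genes, and in 8 without GF replicate 5 (998 of all genes, against 717 with it). All 7 interactions were negative, so that the GF samples stood lower, relative to CONV, in batch 2. Batch as given by the labels and anything else that changed with it, a second array design included, cannot be told apart.

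Markers of macrophages and dendritic cells were called in both directions. Of the 9 macrophage and dendritic cell markers measured, 3 (Csf1r, Itgam and Aif1) were never detected, 1 of 5 tested was higher in GF (Cd68, 0.89, adjusted p = 0.0413) and 1 lower (Cd14, -0.61, adjusted p = 0.0242, limma). Their summed signal, carried mostly by Cd14 and Cd74, was 778 to 810 in GF samples and 1188 to 1336 in CONV samples of batch 1. In batch 2 it was 994 to 2001 in GF samples and 1194 to 7405 in CONV samples. The top of that range was CONV replicate 4, in which Cd74, the invariant chain of antigen-presenting cells, read 12.60, and which also had the highest Ccl5 and Cxcl9 signals. Without CONV replicate 4, Ccl5 kept its call (-0.99, adjusted p = 0.00349) and Cxcl9 lost it (-0.52, adjusted p = 0.0541, limma). Of the 5 B lymphocyte markers measured, 4 were never detected, and of 4 neutrophil markers all 4. The part of these cells in the member values was not tested.

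Genes of the same pathways that the pattern did not take were read as counts. Among 9 tested inducers of chemokine genes and their readers, 1 was higher and 4 were lower in GF, beside 11.3% and 12% of all genes tested. The largest fall was that of Nfkbiz, which encodes an inducible nuclear partner of NF-kappa B (-1.53 ± 0.08, adjusted p = 7.03e-07), followed by the interferon-regulatory gene Irf7 (-1.07 ± 0.19, adjusted p = 0.00191) and Stat2, which carries interferon signals to the nucleus (-0.96 ± 0.13, adjusted p = 0.000281, limma). Relb, an NF-kappa B subunit gene of the same list, named here after its value was seen, was the 1 that rose (0.35, adjusted p = 0.00315). Irf8, a factor of myeloid and lymphoid cells, was not called (-0.23, adjusted p = 0.194, limma). The median of the list was -0.36, against 0.01 over all genes.

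The other lists held calls in both directions or none, beside 23.3% of all genes called. Of 11 tested genes of T cell signalling and adhesion 1 was higher (Il15ra, which presents interleukin 15 to lymphocytes, 0.35, adjusted p = 0.0311) and 1 lower (Ptpn6, the phosphatase SHP-1, -0.30, adjusted p = 0.0147, limma), while Vav1, a signal adaptor of lymphocytes, differed by -0.35 (adjusted p = 0.133). Among 6 cytotoxic genes Hcst, the adaptor DAP10 of activating killer cell receptors, was higher (0.44, adjusted p = 0.0034) and Ctsc, the protease that activates granzymes, lower (-0.38, adjusted p = 0.0152). Ctsw, a protease of cytotoxic lymphocytes, differed by 0.18 (adjusted p = 0.446, limma). Of 5 tested genes related to chemokines or their receptors, Rarres2, which encodes chemerin, was higher (0.46, adjusted p = 0.0339) and Cmtm8 lower (-0.36, adjusted p = 0.0463, limma). Cmtm4 differed by -0.02 (adjusted p = 0.846, limma). Aldh1a1, a retinal dehydrogenase gene and the 1 tested gene of epithelial support, differed by 0.76 (adjusted p = 0.0564, limma).

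**Figure D4:**
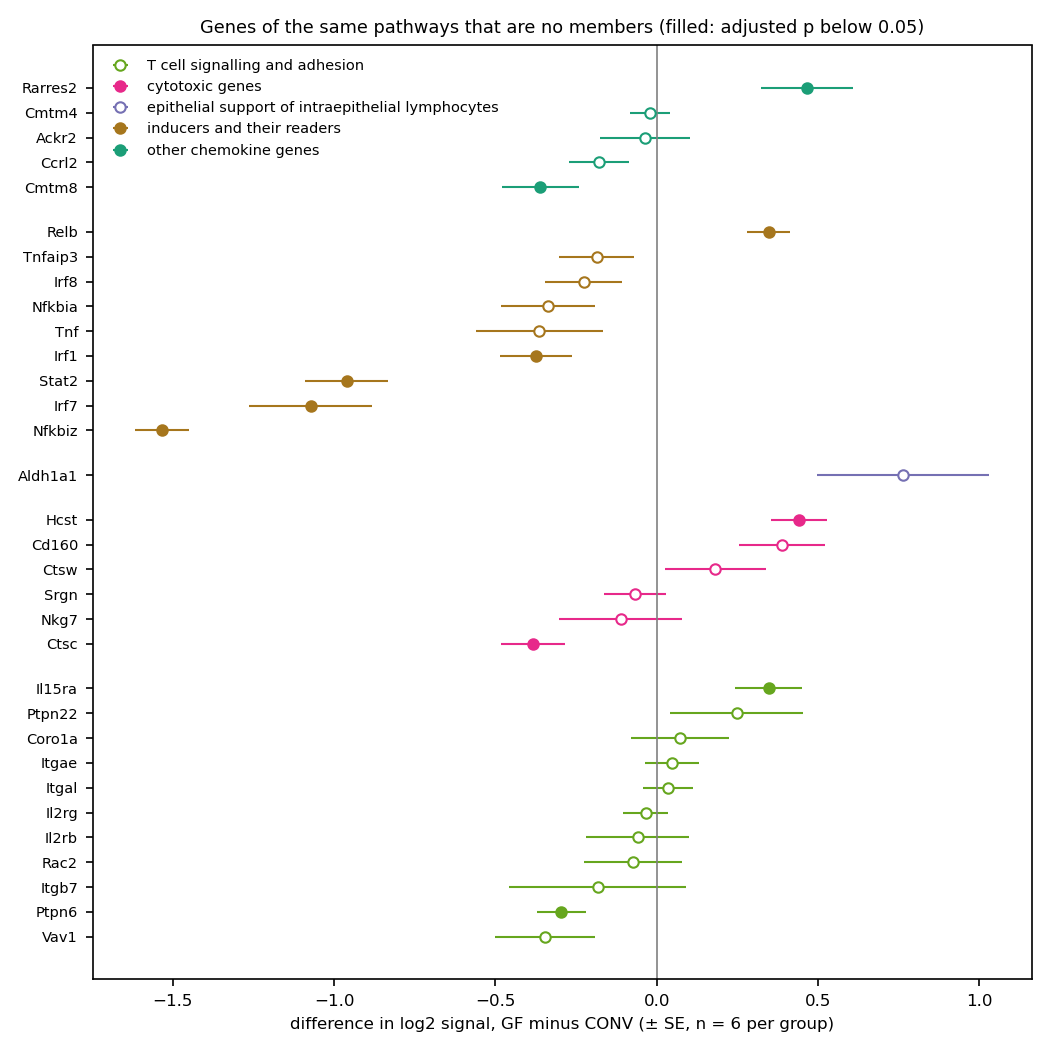
Difference in log2 signal, GF minus CONV, with its standard error (n = 6 in each group, batch as a term) for the tested genes of 5 related lists; filled circles have an adjusted p below 0.05. Among the inducers and their readers 4 filled circles lie left of 0, Nfkbiz farthest at -1.53, and each other list has at most 1 filled circle on either side.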

How the data were processed

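RNA of 6 GF and 6 CONV samples was measured on Illumina arrays, with groups and batches taken from the labels. The deposited values are natural logs of intensity per gene symbol, beside the authors' detection p-value of each row on each array. No source used here describes the array design, the genome build or how the authors combined probes. The submitters' processing notes name limma. Per the file's values, the detection p of 10141 rows of batch 1 is a multiple of 1/1603, and that of 9585 rows of batch 2 a multiple of 1/936 (tolerance 0.005 of a step), so the number of negative controls differed between the batches. The arrays of batch 2 share 1831 to 1992 exact values pairwise and those of batch 1 share 186 to 216, and the step behind this is not given.

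The values were raised to base e, background corrected with normexp (offset 16) using the negative-control mean and SD inferred from the rows on the steps, put on the log2 scale and quantile normalised with limma 3.58.1 in R 4.3.3. Testing was limited to the 8122 rows (8107 genes) detected at p below 0.05 on 3 or more arrays, with the brightest row standing for a gene. Group and batch were fitted by lmFit and eBayes (two-sided). Adjustment followed Benjamini and Hochberg over those genes, at a threshold of 0.05. The same contrast was fitted within each batch, and the interaction of batch and group over all 12 arrays. Where every array of 1 group was undetected, a fold is a lower bound: the mean of the detected group over the undetected group's mean limit. That limit was the lowest detected signal among rows on the steps, or the gene's signal where that was higher. For the combined rows of Ccl4 and Cxcl12 it need not hold. Older names were updated through the gene table of GRCm38.p6 (Cxcl4 is Pf4, Cxcr7 is Ackr3, Ccl27 is Ccl27a). The steps were tested on simulated data. The number of arrays limits the precision.

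The members, lists and tests were chosen with earlier results of these data known. Members named with all their values are those called and the 4 brightest not called, and others are those whose difference changed between batches or that stand for a role, beside up to 3 called genes of each related list and the brightest not called. Irf1 appears in a figure only. Some results are left out and not reported here.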

Additional observations from a re-analysis of the deposited data

Results flagged for a closer look

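Of 58 groups of 6 samples looked at, 6 had a sample beyond Dixon's limit for its distance from the nearest other sample, after each batch was centred, which chance does in about 1 of 20 groups. GF replicate 5 was that sample for Cd81 (12.48, the other GF samples of its batch 11.49 to 11.60), Ccl9 (9.51, others 10.42 to 10.47) and Irf7 (8.36, others 9.22 to 9.41). The others were GF replicate 6 for Cd8b1 (5.89, others 5.26 to 5.31), GF replicate 4 for Il15ra (6.01, others 5.36 to 5.57) and CONV replicate 4 for Ptpn6 (8.60, others 8.80 to 8.86).

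The GF minus CONV difference changed between batches, by limma's interaction term, in 7 members. Batch 2 minus batch 1 was -1.71 for Cd83, -1.68 for Xcl1, -1.29 for Cxcl9, -1.27 for Cd3g, -1.23 for Ccl4, -0.83 for Lck and -0.67 for Ccl25, with adjusted p between 0.00452 and 0.0269. For Ccl25 and Ccl4 the GF samples stood on the same side of the CONV samples in both batches, and for Lck on opposite sides. The rows of Ccl25 and Cxcl9 were combined in batch 1 and not in batch 2.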

How the results depend on the processing

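Of 29 alternatives to the processing, those not named here left the counts of 2 higher and 5 lower members within 1.5 times. A filter at a detection p of 0.01 on 6 arrays tested 10 members. It gave 1 higher and 2 lower (831 and 879 of all genes that passed it). A filter within each batch tested 12 and gave 1 and 3 (843 and 931 of all genes that passed it). Without a batch term there were 1 and 1 (108 and 138 of all genes, against 914 and 975), with array weights 6 higher (2109 and 2173 of all genes). Batch 1 alone gave 7 higher (1893 and 1908 of all genes) and batch 2 alone 0 higher and 2 lower (89 and 130 of all genes). With each sample left out in turn, 2 to 3 members were higher, 4 to 5 lower and 6 to 9 differed between batches (402 to 998 of all genes, against 717). The call of Cxcl9 was lost in 12 of 28 alternatives. That of Ccl5 was lost in 2 of 29, and those of Cxcl12 and Cd8b1 in 2 of 27 each (without a batch term and in batch 2 alone). Ccl25 and Cd81 lost theirs in 1 of 29 each and Ccl4 in 1 of 27. Both filters named above left Cxcl12, Cd8b1 and Ccl4 untested. Among related genes Cmtm8 lost its call in 16 of 29, Rarres2 in 12 of 28 and Il15ra in 11 of 29.

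Only uncalled members changed sign. With array weights Ccl27a was -0.0283, Lck 0.0922, Ccl9 0.27 (adjusted p = 0.0233, limma) and Gzmm -0.0110. In batch 1 alone Ccl27a was -0.0481, Lck 0.23 and Ccl9 0.36, and in batch 2 alone Xcl1 was -0.25, Cd3g -0.26, Cd83 -0.63 and Gzmm -0.0029. With a sample left out, Gzmm lay between -0.0912 and 0.105, Ccl17 between -0.18 and 0.0258 and Ccl9 between -0.13 and 0.117. The cause was not tested.

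The labels number the replicates of both groups alike, but same-numbered samples did not deviate together (correlations -0.26 to 0.04, and 4 of 12 samples correlated best with their own number), so the numbers were not taken as pairs. A replicate block gave 2 higher and 4 lower members, with Cxcl9 lost (adjusted p = 0.113, limma), and 557 and 613 of all genes. With batch as a random block the correlation was 0.824 and the member counts were 2 and 5 (733 and 804 of all genes). Signals close to background limit Cd8b1, Ccl4, Cxcl12 and Cxcl9, and the smaller number of detected rows limits batch 2. Batch 2 is also limited by its spread, with mean correlations within a group of 0.980 to 0.989 against 0.994 to 0.998 in batch 1.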
